A study of Mus musculus with 8 samples.

Results

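The genes of BMAL1 and its partners were followed in mouse liver RNA. They are Arntl (which encodes BMAL1), Clock, Npas2, Bhlhe40 (DEC1) and Bhlhe41 (DEC2), 5 genes of 48323 in the table, and they were taken by name, with earlier results of these data known. Each entry of the 5 genes had a usable estimate in each of the 8 libraries. The mice were wild-type C57BL/6 animals exposed for 30 weeks, and no group carried a deletion or a transgene. The LD-FA group lived in a light/dark cycle and breathed filtered air. The LD-PM2.5 group had the same light and breathed fine particulate matter. The LL-FA group was kept in constant light with filtered air, and the LL-PM2.5 group in constant light with particles. Each group held 2 libraries. Whether the 2 libraries of a group are from different animals is not given in the sources used here, so p-values may measure technical spread only. The time of day at collection, sex and age are not given in them either.

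BMAL1 is the obligate partner of CLOCK, or of its close relative NPAS2, in the heterodimer that binds E-box elements and switches on the repressor genes of the circadian loop and many outputs, such as Dbp. The orphan receptors of the REV-ERB family (Nr1d1, Nr1d2) bind RORE elements in the Arntl promoter and repress it. DEC1 and DEC2 also bind E-boxes, where they repress, and their own genes carry E-boxes. In liver Arntl and Npas2 RNA normally peak in antiphase to Nr1d1 and Dbp, while Clock RNA varies little, so that the phase of the clock at collection bears on all of these genes.

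Libraries held 22214720 to 31819109 estimated fragments. The 5 hepatocyte markers with a usable estimate summed to 19030 to 23666 FPKM (fragments per length of transcript and depth of library) in every library. Alb and Serpina1a were not used. Some libraries stood apart. LD-FA replicate 1 carried 2914 FPKM over the 7 acinar pancreas markers, LL-PM2.5 replicate 2 carried 293 and the first LD-PM2.5 library 105, against 17.7 to 34.7 elsewhere. Over the 6 skeletal muscle markers, LL-FA replicate 1 carried 431 FPKM, LD-FA replicate 1 carried 224 and LD-FA replicate 2 carried 25, against 0.504 to 1.17 elsewhere. LL-FA replicate 2, at 0.699, was the filtered-air library without a raised muscle sum. A filter of 1 FPKM reached by 2 or more libraries left 11316 genes, of which 0 passed an adjusted p of 0.05 in each of the 5 pairwise comparisons, the interaction and the light average by the edgeR quasi-likelihood test. In the particle average over both light regimes, 2 genes (0.0177%) passed, and neither was 1 of the 5 genes. DESeq2 called 33 to 161 genes in the same comparisons.

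Arntl stood lower with particles than with filtered air in both light regimes, and lowest where particles and constant light were combined. The gene lies on chromosome 7 at 113207465 to 113314126, plus strand (GRCm38/mm10). Its RNA stood at 6.75 and 6.35 FPKM for LD-FA, 4.4 and 4 for LD-PM2.5, 6.1 and 4.88 for LL-FA, and 2.09 and 2.04 for LL-PM2.5. The order of the group means was thus LD-FA at 6.55 ± 0.286 FPKM (SD, n = 2), LL-FA at 5.49 ± 0.863, LD-PM2.5 at 4.2 ± 0.287 and LL-PM2.5 at 2.06 ± 0.0361. No neighbouring groups in this order overlapped, but 2 libraries against 2 separate easily. In log2 CPM, 15.9% of tested genes lay lower without overlap in LL-FA than in LD-FA. For LL-PM2.5 against LD-PM2.5 the share was 20.2%. All 4 particle libraries lay below all 4 filtered-air libraries, which held for 2.86% of tested genes in this direction.

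The fitted difference for Arntl between LD-PM2.5 and LD-FA was -0.65 ± 0.14 on the log2 scale (SE; edgeR adjusted p = 0.416). In constant light the same contrast, LL-PM2.5 against LL-FA, gave -1.37 ± 0.15 (edgeR adjusted p = 0.126). Averaged over light, particles gave -1.01 ± 0.10 (95% interval -1.25 to -0.77), a 2.01-fold lower level, at an edgeR adjusted p of 0.0569 that missed the threshold. DESeq2 called this average for Arntl (adjusted p = 7.6e-09). Over 15 alternatives the adjusted p ran from 7.6e-09 to 0.494 and the log2 value from -1.07 to -0.81. Without the 2 libraries with the most muscle RNA (LL-FA replicate 1, LD-FA replicate 1), the average was -0.97 (edgeR adjusted p = 0.494).

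Constant light alone went with a smaller difference in Arntl. LL-FA against LD-FA gave -0.27 ± 0.14 (95% interval -0.60 to 0.06; edgeR adjusted p = 1). With particles in both arms, LL-PM2.5 against LD-PM2.5 gave -0.99 ± 0.15 (edgeR adjusted p = 0.366). The LL-PM2.5 group against LD-FA, which differ in both exposures, gave -1.64 ± 0.15, a 3.11-fold lower level (edgeR adjusted p = 0.0642). The interaction, which asks whether the particle difference itself differed between light regimes, was -0.72 ± 0.20 (unadjusted p = 0.00861, edgeR adjusted p = 0.843). It was therefore not shown that particles acted more strongly on Arntl in constant light. These comparisons share libraries, LD-FA being the control in 3 of them.

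Arntl combined a wide range across the study with close replicates. Its log2 CPM (the fragment count scaled to library depth) ranged over 1.78 across the 8 libraries, wider than in 94.3% of tested genes, while the mean gap between the libraries of a group was 0.14, wider than in 20.3% of them. The median gene had a range of 0.59 and a gap of 0.22. An annotated antisense gene, Gm45355, overlaps Arntl, and since it is not stated that counting used strand, reads of both cannot be told apart.

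**Figure D1:**
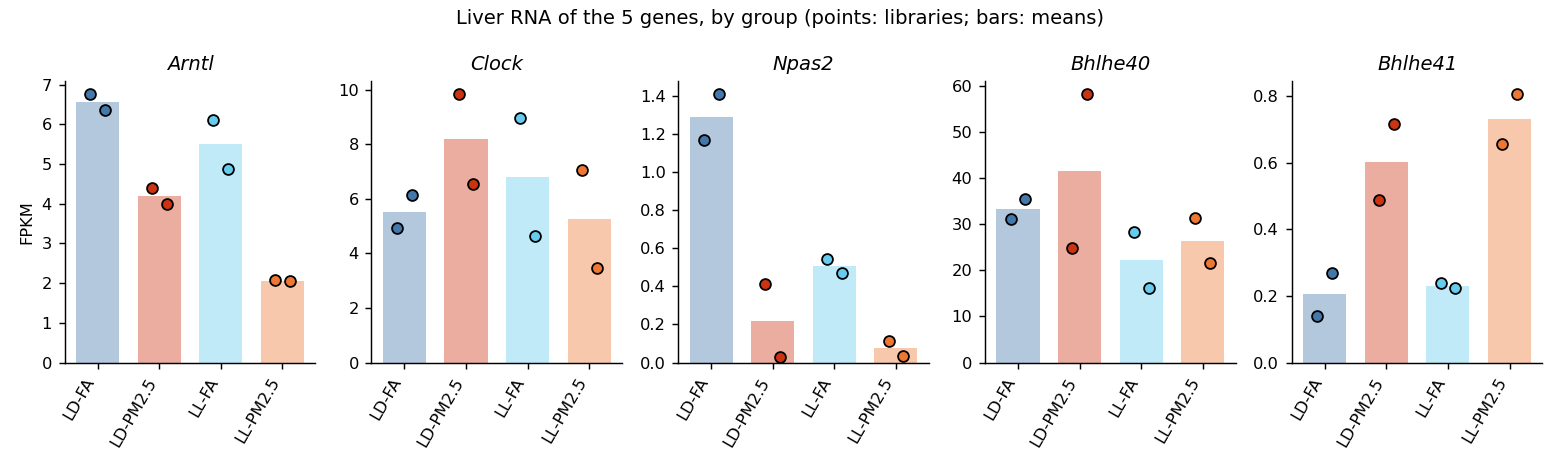
FPKM of the 5 genes in each library (points) with the mean of each group (bars), 2 libraries a group and 1 panel a gene with its own axis from 0. Arntl stands at 2.04 to 4.4 in the particle libraries and 4.88 to 6.75 in filtered air, Npas2 at 0.413 or less against 0.469 or more, and Bhlhe41 at 0.488 or more against 0.27 or less, while Clock and Bhlhe40 overlap.

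The sequence around the Arntl start is shown because the RORE, the element through which REV-ERB acts, is the known link between Nr1d1 and Arntl. The first line below holds the 204 bases before both the GENCODE start and the second of 2 RefSeq starts, chr7:113207261-113207464, plus strand. The second holds 27 bases at chr7:113207531-113207557, which begin just inside the transcribed part, with the RORE core in capitals. Both come from RefSeq on GRCm38.p6.
Arntl upstream: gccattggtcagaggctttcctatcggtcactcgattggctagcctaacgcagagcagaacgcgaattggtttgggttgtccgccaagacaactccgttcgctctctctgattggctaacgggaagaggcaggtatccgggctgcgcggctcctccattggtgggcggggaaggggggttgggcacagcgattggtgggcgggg
Arntl site: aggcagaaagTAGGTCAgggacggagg
The RORE core was searched as TAGGTCA or TGGGTCA, the E-box as CACGTG and the D-box by its 2 spellings TTATGCAA and TTATGTAA, on both strands. The capitals begin at base 31 when the second RefSeq start, 113207511, is counted as base 1. Such a core lies in the first 50 bases of 1.01% of the 32851 mouse promoters in the table. In the 250 bases before the starts, no E-box, RORE core or D-box in these spellings was found in the entries of Arntl, Clock and Npas2. Other spellings were not searched, so their absence is not shown. The bases before the second Arntl start end in aaagtaggtt, which shares the letters aaagtaggt with the site above. The upstream line above stops short of these bases. A match is a description of letters and not a measured binding site, and the first 50 bases were searched after the upstream windows had been read.

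Clock, whose product is the acetyltransferase partner of BMAL1, did not follow Arntl. It lies on chromosome 5 at 76209868 to 76304792, minus strand, and overlaps the annotated Ube2n-ps1 and Gm43658 on the same strand. Its FPKM was 4.93 and 6.13 for LD-FA, 9.83 and 6.56 for LD-PM2.5, 8.98 and 4.63 for LL-FA, and 7.06 and 3.46 for LL-PM2.5. The libraries of a group differed by up to 2.04-fold, and all groups overlapped on this scale except LD-PM2.5, which lay above LD-FA. On log2 CPM those groups overlapped as well, and LL-PM2.5 lay below LD-PM2.5. The order of the Clock group means was LD-PM2.5 at 8.19 ± 2.31 FPKM, LL-FA at 6.8 ± 3.08, LD-FA at 5.53 ± 0.854 and LL-PM2.5 at 5.26 ± 2.54 (SD, n = 2 each). The ranges of mean ± SD of neighbours in this order overlapped.

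In the edgeR fit, the particle average for Clock was -0.04 ± 0.18 (95% interval -0.47 to 0.39; adjusted p = 0.948). The interval does not reach the Arntl value of -1.01, but the difference between the genes was not tested. For constant light the average was -0.20 ± 0.18 (95% interval -0.63 to 0.23; edgeR adjusted p = 0.946). The widest pairwise difference was -0.54 ± 0.26, in LL-PM2.5 against LD-PM2.5 (95% interval -1.15 to 0.07; edgeR adjusted p = 0.565). It was -0.85 without LL-PM2.5 replicate 1, -0.28 when the other library of that group was dropped, and -0.35 when LD-PM2.5 replicate 1 was. Leaving out 1 library moved the light average of Clock between -0.36 (without LL-PM2.5 replicate 1) and -0.07 (without LD-FA replicate 2, and likewise when replicate 2 of LL-PM2.5 was dropped). A p that misses the threshold does not show equal levels.

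The FPKM of Clock also depended on how fragments were turned into FPKM. Relative to its own mean, the number of Clock fragments behind 1 FPKM, after scaling for depth, ran from 0.864 in LL-FA replicate 1 to 1.18 in LL-FA replicate 2, a 1.37-fold spread that exceeded that of 91.9% of tested genes. For Arntl the spread was 1.08-fold. Clock has 13727 exonic bases, and long transcripts as a class also varied between libraries. The median log2 CPM deviation of the 4251 tested genes with more than 5 kb of exon, minus that of the 998 with less than 1 kb, was -0.20 and 0.04 for LD-FA, 0.20 and 0.11 for LD-PM2.5, 0.13 and -0.21 for LL-FA, and 0.11 and -0.15 for LL-PM2.5. Clock deviated from its own mean by -0.29 and 0.19, 0.42 and 0.10, 0.30 and -0.12, and -0.01 and -0.58 log2 CPM in the same order. In each group the library with more long-gene RNA was also the one with more Clock RNA. The part of transcript length in the Clock values was not tested.

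**Figure D2:**
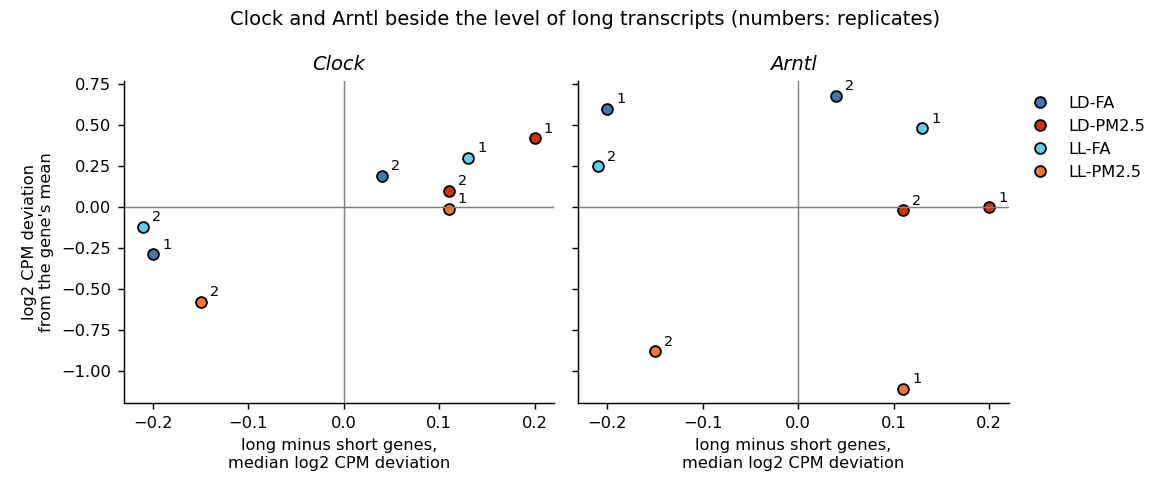
Log2 CPM deviation of Clock (left) and Arntl (right) from the gene's own mean, against the median deviation of long genes minus that of short genes, 1 point a library with its replicate number. Clock lies lowest, at -0.58, in LL-PM2.5 replicate 2 and highest, at 0.42, in LD-PM2.5 replicate 1, at length values of -0.15 and 0.20, whereas the lowest Arntl libraries, at -1.11 and -0.88, lie at 0.11 and -0.15.

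Npas2, the relative of Clock that can take its place beside BMAL1, was scarce and stood lower with particles. It lies on chromosome 1 at 39193731 to 39363236, plus strand, and overlaps the annotated pseudogenes Gm20428 on the opposite strand and Gm3617 on the same strand. Its FPKM was 1.17 and 1.41 for LD-FA, 0.413 and 0.0276 for LD-PM2.5, 0.544 and 0.469 for LL-FA, and 0.113 and 0.0357 for LL-PM2.5. These values rest on 153 and 230 fragments, 58 and 3, 74 and 53, and 17 and 5. The exact 95% Poisson interval, which covers counting error only, is 0.619 to 8.77 for the 3 fragments and 1.62 to 11.7 for the 5.

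All 4 particle libraries lay below all 4 filtered-air libraries for Npas2 as they did for Arntl, and as they did for 2.86% of tested genes. The 2 LD-PM2.5 libraries differed 15-fold in FPKM, and the LL-PM2.5 values lay inside their range. The group means followed the order LD-FA at 1.29 ± 0.168, LL-FA at 0.507 ± 0.0532, LD-PM2.5 at 0.22 ± 0.272 and LL-PM2.5 at 0.0743 ± 0.0546 FPKM (SD, n = 2 each). Only the LD-FA libraries reached 1 FPKM, so the gene entered the test through the group where it is high. It also passed a filter on counts, where the fitted values were the same to 2 decimals.

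In LD-PM2.5 against LD-FA the fitted difference for Npas2 was -2.52 ± 0.83 (edgeR adjusted p = 0.438), and in LL-PM2.5 against LL-FA -2.74 ± 0.92 (edgeR adjusted p = 0.989). The interaction of -0.22 ± 1.18 leaves a wide interval, -2.97 to 2.54. Averaged over light, particles gave -2.63 ± 0.62, 6.18-fold lower (edgeR adjusted p = 0.396). DESeq2 called this average (adjusted p = 0.000225), and over 15 alternatives the adjusted p ran from 6.05e-10 to 0.928. In this average DESeq2 called 1.42% of all tested genes. It includes LD-FA, through which Npas2 entered the test, so a call on Npas2 gives no support. The size of the Npas2 difference rests on which LD-PM2.5 library is kept. Without LD-PM2.5 replicate 1 the LD-PM2.5 difference was -5.50 (edgeR adjusted p = 0.0584) and the average -4.12 (edgeR adjusted p = 0.0462). Without LD-PM2.5 replicate 2 they were -1.66 (edgeR adjusted p = 0.855) and -2.20 (edgeR adjusted p = 0.511). Without the 2 libraries richest in muscle RNA the average was -2.64 (edgeR adjusted p = 0.908).

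Constant light in filtered air gave -1.33 ± 0.78 for Npas2 (edgeR adjusted p = 1). LL-FA lay below LD-FA without overlap, as in 15.9% of tested genes in log2 CPM. LD-FA is the group through which Npas2 entered the test, so this separation gives no support. With particles in both arms the light difference was -1.55 ± 0.95 (edgeR adjusted p = 0.618). Without LD-PM2.5 replicate 1 its sign turned, to 1.43. Over the other leave-one-out fits it stayed negative, with the lowest value, -2.54, when LL-PM2.5 replicate 1 was dropped. LL-PM2.5 against LD-FA gave the widest difference among the 5 genes, -4.07 ± 0.93 (edgeR adjusted p = 0.414), 16.8-fold lower. In bulk RNA, fewer cells that express a gene and less RNA per cell cannot be told apart.

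The ratio of Clock to Npas2 in FPKM describes which partner RNA was available to BMAL1. It was 4.2 and 4.35 for LD-FA, 23.8 and 238 for LD-PM2.5, 16.5 and 9.86 for LL-FA, and 62.5 and 96.9 for LL-PM2.5. Clock RNA thus exceeded Npas2 RNA in each library, by the smallest factor in LD-FA, and the ratio was higher in each particle library than in any filtered-air library. The particle ratios rest on few Npas2 fragments, 58 and 3 for LD-PM2.5 and 17 and 5 for LL-PM2.5. Protein was not measured.

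Bhlhe40, which encodes the E-box repressor DEC1, was the most abundant of the 5 genes per length, in FPKM, and varied widely between libraries of a group. It lies on chromosome 6 at 108660629 to 108666925, plus strand, and overlaps the antisense gene 0610040F04Rik. Its FPKM was 31 and 35.4 for LD-FA, 24.9 and 58.1 for LD-PM2.5, 28.3 and 16.2 for LL-FA, and 31.3 and 21.5 for LL-PM2.5. The LD-PM2.5 libraries held both the highest value and one below LD-FA. The LL-FA libraries lay below both LD-FA libraries, while the other comparisons overlapped on this scale. Group means were 41.5 ± 23.5 FPKM in LD-PM2.5, 33.2 ± 3.12 in LD-FA, 26.4 ± 6.94 in LL-PM2.5 and 22.3 ± 8.54 in LL-FA (SD, n = 2 each), and neighbours in this order did not differ beyond their spread.

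For Bhlhe40 the edgeR particle average was 0.25 ± 0.27 (95% interval -0.38 to 0.89; adjusted p = 0.766). The light average was -0.57 ± 0.27 (95% interval -1.20 to 0.07; edgeR adjusted p = 0.861), and -0.20 without LD-PM2.5 replicate 2. Both particle contrasts were small, 0.27 ± 0.38 in the light/dark cycle and 0.24 ± 0.38 in constant light. The first rests on which LD-PM2.5 library is kept. Without LD-PM2.5 replicate 2 it was -0.44 (edgeR adjusted p = 0.855) and the average -0.10. With replicate 1 of that group dropped instead, they were 0.74 and 0.49. The contrast in constant light ran from -0.06 when LL-FA replicate 2 was dropped to 0.60 when the other LL-FA library was. The mean gap between libraries of a group was 0.60 log2 CPM, wider than in 93.1% of tested genes.

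Bhlhe41, the gene of DEC2, stood higher with particles, opposite to Arntl and Npas2. It lies on chromosome 6 at 145858243 to 145865558, minus strand, with an unconfirmed annotated transcript, Gm43909, on the other strand. Its FPKM was 0.141 and 0.27 for LD-FA, 0.488 and 0.717 for LD-PM2.5, 0.238 and 0.223 for LL-FA, and 0.658 and 0.806 for LL-PM2.5. These values rest on 24 and 31 fragments, 81 and 52, 39 and 37, and 104 and 112. Every particle library lay above every filtered-air library in FPKM and in log2 CPM, as did 2.76% of the 14624 genes that pass a filter on counts. The order of the group means was LL-PM2.5 at 0.732 ± 0.105, LD-PM2.5 at 0.602 ± 0.161, LL-FA at 0.231 ± 0.0106 and LD-FA at 0.205 ± 0.0911 FPKM (SD, n = 2 each), in which the first pair and the last pair overlapped.

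At no more than 0.806 FPKM, Bhlhe41 did not pass the filter of 1 FPKM. It was therefore tested among the 14624 genes that pass the filter on counts, a choice made after its level was seen. There, particles gave 1.48 ± 0.27 in the light/dark cycle (edgeR adjusted p = 0.469) and 1.29 ± 0.26 in constant light (edgeR adjusted p = 0.946). The average over light was 1.39 ± 0.19, 2.61-fold higher (95% interval 0.95 to 1.82; edgeR adjusted p = 0.198, with 0.00684% of genes called). DESeq2 on the same genes called it (adjusted p = 0.00194, with 1.2% called), and over 16 alternatives the adjusted p ran from 5.82e-05 to 0.938. Without the 2 libraries richest in muscle RNA the average was 1.31 (edgeR adjusted p = 0.834).

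Constant light in filtered air gave 0.73 ± 0.27 for Bhlhe41 (edgeR adjusted p = 1), and LL-PM2.5 against LD-FA gave 2.02 ± 0.27, 4.06-fold higher (edgeR adjusted p = 0.246). The interaction was -0.19 ± 0.37 (edgeR adjusted p = 0.951). The fragments behind 1 FPKM differed 2.15-fold between libraries for this gene, more than in 99.8% of tested genes, so the FPKM of single libraries is less certain than the log2 CPM. In FPKM, Bhlhe40 exceeded Bhlhe41 by 220 and 131 times for LD-FA, 51.1 and 81.1 for LD-PM2.5, 119 and 72.7 for LL-FA, and 47.7 and 26.7 for LL-PM2.5.

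An E-box lies before the start of Bhlhe41, and the sequence is shown because BMAL1 and the DEC proteins themselves bind this element. The line holds the 112 bases before both the GENCODE and the RefSeq start, chr6:145865559-145865670, minus strand, from RefSeq on GRCm38.p6, with CACGTG in capitals.
Bhlhe41 upstream: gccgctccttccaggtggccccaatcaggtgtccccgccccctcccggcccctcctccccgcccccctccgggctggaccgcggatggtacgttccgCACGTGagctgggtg
The E-box begins 153 bases before the RefSeq start, and 6.02% of mouse promoters in the table hold one in the 250 bases before their start. No RORE core or D-box, which 5.38% and 1.5% of promoters hold, was found in that window of Bhlhe41. Bhlhe40 was not matched in the promoter table.

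**Figure D3:**
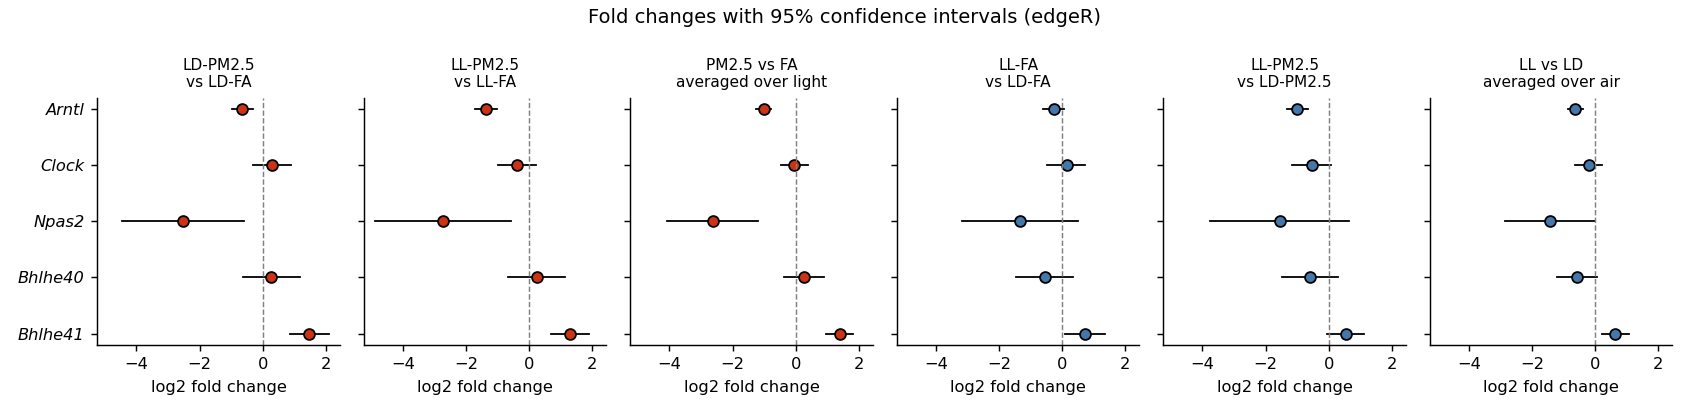
Log2 fold changes (points) with 95% confidence intervals (lines) from edgeR for the 5 genes in 6 comparisons, the first-named group over the second, particle comparisons in red and light comparisons in blue. In the particle average, Arntl at -1.01 and Npas2 at -2.63 lie below 0 and Bhlhe41 at 1.39 above it, while the intervals of Clock and Bhlhe40 include 0.

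By comparison, the 4 genes tested under the FPKM filter were read against the background of all tested genes. Npas2 entered this set only through the LD-FA libraries. Its calls and separations in comparisons that include LD-FA are therefore listed but give no support. In LD-PM2.5 against LD-FA edgeR called 0 of them (background 0%, with 1240 genes at an unadjusted p under 0.05), and DESeq2 called Npas2 (background 1.33%). Arntl and Npas2 lay lower without overlap in log2 CPM, as did 24.8% of all tested genes, and Bhlhe41 lay higher, as did 23.7% of genes passing the filter on counts. These shares are large because 2 libraries against 2 separate easily. In LL-PM2.5 against LL-FA edgeR called 0 (background 0%, with 547 genes at an unadjusted p under 0.05), and DESeq2 called Arntl (background 0.513%). The same 2 genes lay lower without overlap (background 14.9%), and Bhlhe41 lay higher (background 15.4%). Lying lower in both light regimes without overlap was shared by 5.03% of tested genes.

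For the averages, edgeR called 0 of the 4 genes for particles (background 0.0177%) and DESeq2 called Arntl and Npas2 (background 1.42%). For constant light edgeR called 0 of 4 (background 0%, with 641 genes at an unadjusted p under 0.05), and DESeq2 called Arntl (background 0.813%). None of the 5 genes separated all LL from all LD libraries (background 1.79% lower and 1.4% higher). In LL-FA against LD-FA neither tool called any of the 4 genes (background 0% by edgeR, with 310 genes at an unadjusted p under 0.05, and 0.38% by DESeq2). There, in log2 CPM, Arntl, Npas2 and Bhlhe40 lay lower without overlap (background 15.9%), and Bhlhe41 lay higher (background 14.6%). In FPKM, Bhlhe41 overlapped.

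In LL-PM2.5 against LD-PM2.5 edgeR called 0 of 4 (background 0%, with 1044 genes at an unadjusted p under 0.05) and DESeq2 called Arntl (background 1.23%). In log2 CPM, Arntl and Clock lay lower without overlap (background 20.2%), and Bhlhe41 lay higher (background 19.3%). In FPKM, Clock and Bhlhe41 overlapped between these groups. In LL-PM2.5 against LD-FA edgeR called 0 of 4 (background 0%, with 759 genes at an unadjusted p under 0.05), and DESeq2 called Arntl and Npas2 (background 0.84%). In log2 CPM, Arntl, Npas2 and Bhlhe40 lay lower there without overlap (background 18.6%) and Bhlhe41 higher (background 18.3%). DESeq2 among the genes passing the filter on counts also called Bhlhe41 here (adjusted p = 0.00114, background 0.697%). The interaction gave 0 calls among the 4 genes by either tool (background 0% by edgeR, with 552 genes at an unadjusted p under 0.05, and 0.292% by DESeq2).

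Across the 8 libraries Arntl ran opposite to Bhlhe41 and Dbp, which ran together. Dbp, a clock-driven transcription factor and direct output of the BMAL1 heterodimer, stood at 2.77 and 2.05 FPKM for LD-FA, 9.12 and 13 for LD-PM2.5, 3.86 and 9.08 for LL-FA, and 32.9 and 54 for LL-PM2.5. Pearson's r between Arntl and Dbp in log2 CPM was -0.96 (Spearman's rho -0.98; exact permutation p = 0.00037 and 0.0004, adjusted p = 0.0045 and 0.0079 over the 20 pairs examined). Arntl and Bhlhe41 gave an r of -0.91 (rho -0.93; exact permutation p = 0.0017 and 0.0022, adjusted p = 0.012 and 0.011). Leaving out the 2 libraries farthest from the Arntl median, which are the whole LL-PM2.5 group, gave -0.97 for each pair.

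For Bhlhe41 and Dbp the r was 0.95 (rho 0.95; exact permutation p = 0.00045 and 0.0011, adjusted p = 0.0045 and 0.011), and 0.94 without the 2 farthest libraries. Npas2 gave -0.86 with Dbp (rho -0.93; exact permutation p = 0.007 and 0.0022, adjusted p = 0.035 and 0.011), and -0.99 without the 2 farthest. With Bhlhe41 it gave -0.84 (rho -0.83; exact permutation p = 0.012 and 0.015, adjusted p = 0.046 and 0.051), and -0.93 without the 2 farthest. Arntl and Npas2 themselves gave 0.77 (rho 0.90; exact permutation p = 0.028 and 0.0046, adjusted p = 0.093 and 0.018), and 0.81 without the 2 farthest. No pair with Clock or Bhlhe40 had an adjusted p under 0.05.

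The libraries of a group share their exposures, so these relations mix differences between and within groups. The permutations moved all 8 libraries freely and ignored the groups. Their p-values therefore do not test a relation apart from the group differences. The deviations of libraries from their group means gave an r of -0.23 for Arntl and Dbp, 0.29 for Arntl and Bhlhe41, 0.39 for Bhlhe41 and Dbp, and -0.14 for Arntl and Npas2. For Npas2 they gave -0.55 with Dbp and 0.23 with Bhlhe41, the latter of opposite sign to the value over all libraries. Clock and Dbp, at -0.45 over all libraries (rho -0.31; exact permutation p = 0.27 and 0.46, adjusted p = 0.61 and 0.83), gave -0.97 for these deviations. Each group is too small for a value of its own. The ratio of Dbp to Arntl in FPKM was 0.41 and 0.322 for LD-FA, 2.07 and 3.25 for LD-PM2.5, 0.633 and 1.86 for LL-FA, and 15.8 and 26.5 for LL-PM2.5. It was lower in every filtered-air library than in any particle library.

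Nr1d1, the gene of the REV-ERB repressor of Arntl, did not run opposite to Arntl in the same way. It stood at 22 and 20.1 FPKM for LD-FA, 52.5 and 5.55 for LD-PM2.5, 15.1 and 12.2 for LL-FA, and 37.8 and 39.8 for LL-PM2.5. The 2 LD-PM2.5 libraries held both the highest and the lowest value of the study, a 9.45-fold difference, while their Arntl values differed 1.1-fold. Pearson's r between Arntl and Nr1d1 was -0.44 (rho -0.29; exact permutation p = 0.27 and 0.50, adjusted p = 0.61 and 0.83). It was 0.13 without the 2 libraries farthest from the Arntl median, both LL-PM2.5, so its sign rests on that group.

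**Figure D4:**
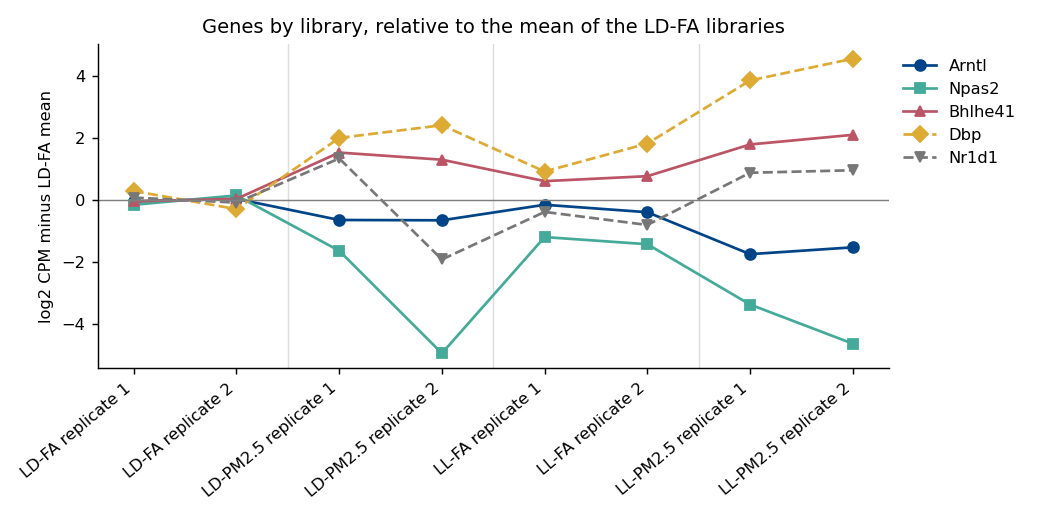
Log2 CPM of Arntl, Npas2, Bhlhe41, Dbp and Nr1d1 in each of the 8 libraries minus the mean of the LD-FA libraries; the lines only join points of 1 gene. Arntl reaches -1.74 and -1.52 in LL-PM2.5, where Dbp reaches 3.85 and 4.55, and in LD-PM2.5 Nr1d1 stands at 1.34 and -1.91 while Arntl stands at -0.64 and -0.65.

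The targets and regulators of these factors were read as lists, none of whose genes passed the edgeR test in any comparison. The 15 E-box targets of CLOCK and BMAL1, all tested, had a positive particle difference in 15 of 15 in the light/dark cycle (median log2 1.59) and in 13 of 15 in constant light (median 0.81), against 48.4% and 50.7% of all tested genes (medians -0.01 and 0.00). Higher without overlap were 10 of 15 in each light regime (background 24.6% and 15.1%). Those of smallest p for the average were Dbp at 2.51 ± 0.27 (edgeR adjusted p = 0.0672), Nr1d2 at 0.62 ± 0.12 (edgeR adjusted p = 0.325), the period gene Per3 at 2.44 ± 0.52 (edgeR adjusted p = 0.361) and the PAR bZIP factor Tef at 1.20 ± 0.29 (edgeR adjusted p = 0.396).

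LD-PM2.5 replicate 2 stood apart within this list. The period gene Per2 was at 9.33 FPKM there against 0.699 to 2.23 in the other libraries, the deubiquitinase gene Usp2 at 16.4 against 0.803 to 5.07, and the kinase gene Wee1 at 6.8 against 0.637 to 2.36. Cry1, a core repressor of the loop that also answers to ROREs, stood at 15.1 FPKM in that library and 2.71 to 5.36 elsewhere. In this library Npas2 had 3 fragments, Bhlhe40 its highest and Nr1d1 its lowest value, whereas Arntl stood close to LD-PM2.5 replicate 1. These 4 genes (Per2, Usp2, Wee1, Cry1) were named after their values were seen.

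Nfil3, a RORE-driven repressor that binds D-boxes, stood at 13.7 and 16.8 FPKM for LD-FA, 20.9 and 26.7 for LD-PM2.5, 12 and 12.6 for LL-FA, and 11 and 9.34 for LL-PM2.5. It was highest in the group where Arntl was second lowest, and lowest where Arntl was lowest. Its particle difference was 0.66 ± 0.17 in the light/dark cycle (edgeR adjusted p = 0.416) and -0.26 ± 0.17 in constant light (edgeR adjusted p = 0.989). Nr1d2, a REV-ERB gene, stood at 9.76 and 6.65 FPKM for LD-FA, 14.5 and 11.8 for LD-PM2.5, 11.7 and 10.8 for LL-FA, and 19.2 and 16.3 for LL-PM2.5. In FPKM its lowest particle library, at 11.8, lay just above its highest filtered-air library, at 11.7, and in log2 CPM these overlapped. Of the 15 E-box targets, 3 lay higher without overlap in log2 CPM in all 4 particle libraries (background 2.82%).

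The partners and modifiers of CLOCK and BMAL1 (kinases, ubiquitin ligases, acetylases and corepressors) showed no shared direction. Of 25 listed genes 23 were tested, 15 with a positive and 8 with a negative particle average (median log2 0.06). Of all tested genes, 49.5% had a positive one. The smallest p belonged to Ogt, the enzyme that adds N-acetylglucosamine to proteins, at 0.34 ± 0.11, and Csnk2a1, a subunit of casein kinase II, at -0.23 ± 0.09 (edgeR adjusted p = 0.43 and 0.486).

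Among the other genes of the bHLH-PAS family, to which Arntl, Clock and Npas2 belong, 7 of 16 were tested. All 7 had a positive particle difference in the light/dark cycle (median 0.37) and 4 of 7 in constant light (median 0.07). Among all tested genes 48.4% and 50.7% were positive. Long transcripts, relative to short ones, also stood higher in LD-PM2.5 than in LD-FA, and the part of length here was not tested. Epas1, the gene of HIF-2 alpha, stood at 19.2 and 21.5 FPKM for LD-FA, 26 and 30.8 for LD-PM2.5, 23.6 and 20 for LL-FA, and 25.2 and 23.4 for LL-PM2.5, with a particle average of 0.34 ± 0.12 (edgeR adjusted p = 0.432). Arntl2, the paralogue of Arntl, did not pass the filter. Of the 12 HIF targets, which the dimers of related bHLH-PAS proteins drive, 10 were tested. A positive particle average was seen in 7 of the 10 (median 0.11), against 49.5% of all tested genes. In the bHLH-Orange family, that of the DEC proteins, only Hes1 and Hes6 of 10 other genes were tested, at 0.16 ± 0.19 and -0.16 ± 0.17 for particles (edgeR adjusted p = 0.778 and 0.766).

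The genes whose log2 CPM followed each factor most closely over the 8 libraries were read out as a description. For Arntl they were Flad1, Cdkn1a and Leo1 (r = 0.975, 0.974 and 0.968), and the most opposite were Dusp22 and Dbp (-0.965 and -0.957). Cdkn1a, the gene of the cell cycle inhibitor p21, stood at 4.86 and 6.27 FPKM for LD-FA, 3.83 and 2.61 for LD-PM2.5, 5.04 and 4.52 for LL-FA, and 1.19 and 1.36 for LL-PM2.5. Flad1 moved far less, from 13.6 to 16.8 FPKM. For Npas2 the closest were Ppp1ca, Tdrkh and Tpmt (0.975, 0.974 and 0.972), and the most opposite Ciart and Serpina6 (-0.980 and -0.969). Ciart, a repressor of the BMAL1 heterodimer, ran from 0.129 FPKM in LD-FA replicate 1 to 1.86 in LD-PM2.5 replicate 2.

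For Clock the closest genes were Rptor, Epg5 and Kidins220 (r = 0.981, 0.978 and 0.972), and the most opposite Rps23-ps1 and Acp1 (-0.976 and -0.971). For Bhlhe40 they were Dnajc18, Tsc22d3 and Npr1 (0.960, 0.951 and 0.941), with Lipt1 and Ppie the most opposite (-0.958 each). Tsc22d3, the glucocorticoid-induced leucine zipper, was highest in LD-PM2.5 replicate 2, at 73.6 FPKM, and lowest in LL-FA replicate 2, at 23.6, the libraries with the highest and lowest Bhlhe40. An r above 0.9 was reached by 26 genes for Arntl, 90 for Clock, 61 for Npas2 and 9 for Bhlhe40. All points come from the same 8 libraries, and such lists are picked from 11316 genes.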

How the data were processed

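Per the submitters' processing notes, reads were handled with STAR, Cufflinks and Cuffdiff on mm10; their versions and options are not stated. The deposited table gives, per the file headers, an estimated count of fragments and an FPKM value by the authors for each gene and library. Of the fragment values above 0, 97.4% were whole to within 0.01, and all were rounded for the tests. Entries with a status other than OK (193 entries, 47 genes of 48432) were left out, none of them among the 5 genes, and 48051 IDs matched a symbol. Genes reaching 1 FPKM in 2 or more libraries entered the edgeR quasi-likelihood test (R 4.3.3, edgeR 4.0.16, TMM, 4 group means, 4 residual degrees of freedom), two-sided, Benjamini-Hochberg adjusted over all tested genes, with a prior count of 2 for log2 CPM. The script was tested on simulated data. DESeq2 1.42.0, limma 3.58.1 on log2(FPKM + 1) and log2(FPKM + 0.1), median-of-ratios scaling, no filter, a replicate block and leaving out libraries were alternatives. Relations used exact permutation (scipy 1.17.1). The genes named were the 5 genes in every comparison, the 3 most and 2 least correlated genes of each tested one, up to 4 of smallest p per list, and Nr1d1 and Dbp. The 5 genes and the lists were chosen with earlier results of these data known. Positions are from GENCODE vM21, promoters from RefSeq (GRCm38.p6). One gene of the lists is not reported here by name.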

Additional observations from a re-analysis of the deposited data

How the results depend on the processing

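Arntl kept its direction in all 120 alternative values, and 11 of them, all from DESeq2 or the fit with no filter, passed the threshold. For Npas2 9 did, for Bhlhe41 6 and for Bhlhe40 1. Counts of genes past the threshold depended on the tool. With no filter, edgeR called 647, 201, 476, 358, 486, 239, 696 and 291 genes (LD-PM2.5 vs LD-FA, LL-FA vs LD-FA, LL-PM2.5 vs LL-FA, LL-PM2.5 vs LD-PM2.5, LL-PM2.5 vs LD-FA, interaction, particle average, light average), with prior degrees of freedom of 76.3 in place of 3.46, and DESeq2 called 151, 43, 58, 139, 95, 33, 161 and 92, against 0 and, for the particle average, 2. With limma on log2(FPKM + 1) there was 1 call in LL-PM2.5 vs LL-FA, LL-PM2.5 vs LD-PM2.5, LL-PM2.5 vs LD-FA and the light average, and 2 in the interaction; with 0.1 there was 1 in the particle average. Without the 2 muscle-rich libraries there was 1 call in LD-PM2.5 vs LD-FA and 0 in the particle average, and with the filter on counts, added after seeing the data, 1 in the particle average. Leaving out each library gave 0 to 36 calls in LD-PM2.5 vs LD-FA (36 without LD-PM2.5 replicate 1), 0 to 10 in LL-PM2.5 vs LL-FA, 0 to 4 in LL-PM2.5 vs LD-PM2.5, 0 to 7 in LL-PM2.5 vs LD-FA, 0 to 17 in the particle average and 0 to 1 in the light average; a group left with 1 library is assumed to vary like the others. The cause of these differences was not tested.

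Signs of some values turned. For Clock, leaving out libraries gave -0.08 to 0.4 in LL-FA vs LD-FA (-0.31 without the muscle-rich libraries), -0.55 to 0.02 in LL-PM2.5 vs LD-FA and -0.2 to 0.09 in the particle average (0.08 by limma with either pseudocount). For Bhlhe40 it gave -0.44 to 0.74 in LD-PM2.5 vs LD-FA, -0.06 to 0.6 in LL-PM2.5 vs LL-FA, -1.05 to 0.14 in LL-PM2.5 vs LD-PM2.5, -0.1 to 0.49 in the particle average and -0.51 to 0.68 in the interaction, which was 0.07 and 0.08 by limma and 0.40 without the muscle-rich libraries. For Npas2 it gave -2.54 to 1.43 in LL-PM2.5 vs LD-PM2.5, -1.94 to 0.06 in the light average and -1.21 to 2.76 in the interaction, which was 0.44 and 0.60 by limma and 0.06 without the muscle-rich libraries. The interaction of Bhlhe41 was 0.08 and 0.11 by limma. The relation of Arntl and Nr1d1 turned to 0.13 without the 2 farthest libraries, both LL-PM2.5.

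The replicate numbers share only a number: libraries of the same number deviated from their group means with an r of -0.59 to 0.33 across genes. A fit with a replicate block made 0 calls in each comparison except the particle average, with 2, gave Arntl -1.01 there (edgeR adjusted p = 0.127), and changed no call on the 5 genes. Npas2 with 3 and 5 fragments is limited by depth.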
